A study of Mus musculus with 6 samples.

Results

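The MLT elements are the oldest branch of the mammalian apparent LTR retrotransposons (MaLR). RNA from them was measured in mouse embryonic fibroblasts of 2 genotypes. The members were the rows of the ERVL-MaLR family whose names do not start with MT or ORR1, which are the names of the rodent branch. This rule took 60 of the 1336 rows of the repeat count tables, each row a subfamily summed over all its genomic copies. The rule was written to include MST and THE1 elements too, but 0 rows of either name were present. All members carried MLT names, 59 of them MLT1 names and the last MLT-int, so they are called MLT rows here. They comprised 30 LTR rows and 30 rows ending in -int, the internal regions between LTRs.

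Wild-type cells (WT, 3 libraries) were set against Actb-/- cells (KO, 3 libraries), in which both copies of the gene for β-actin, an actin of the cytoskeleton and the nucleus, are knocked out. All were fibroblasts of strain BALB/c from embryos of 10.5 days, with no treatment named. Total RNA was sequenced after depletion of ribosomal RNA. The series calls the samples biological replicates, but the labels name no separate embryos or cultures, so the p-values measure the spread between these samples only. Protein-coding genes have no rows, so RNA of Actb and fibroblast markers were not analysed here.

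MaLR elements are relatives of the ERVL endogenous retroviruses. They move, or once moved, with enzymes supplied by other elements, since their internal regions lack the retroviral coding genes. Each complete copy has a long terminal repeat (LTR) at both ends, which holds promoter and polyadenylation signals, and recombination between the LTRs often leaves a solitary LTR behind. MLT1 copies were inserted before the placental mammals diverged, are shared by mouse and human, and have lost the ability to move, whereas THE1 elements belong to primates and the MT and ORR1 elements to rodents. Many MLT1 fragments lie inside introns and noncoding RNAs of their host genes. The counts cannot separate such read-through RNA from transcription that starts in the LTR, and fewer cells with a transcript cannot be told apart from less RNA per cell.

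Libraries held 7708630 to 19288620 counts, of which rRNA took 32.4% to 84.8%. WT replicate 1 (32.4%) and KO replicate 2 (52.9%) had the least rRNA. Levels are therefore given as normalized CPM, which is CPM of an effective library size found by TMM, the trimmed mean of M-values. They are thus relative to most rows of the table, and a shift of every repeat at once would not show. The MLT rows had 58308, 18064 and 34621 counts in WT replicates 1 to 3 and 19825, 48570 and 35657 in KO replicates 1 to 3.

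Summed over all 60 rows, the MLT level was nearly the same in every library. It was 2419, 2349 and 2410 normalized CPM in WT replicates 1 to 3 and 2429, 2412 and 2405 in KO replicates 1 to 3. The means were 2393 ± 38.0 (SD, n = 3) in WT and 2415 ± 12.2 in KO, and the genotypes overlapped. The difference of 22.6 normalized CPM was smaller than the SD of the WT libraries, and no test was run on this sum. Its constancy is partly a matter of scale, since TMM sets the bulk of rows equal between libraries.

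The rodent MaLR rows, 49 rows with MT and ORR1 names, were far less even when summed the same way. They stood at 14326, 34016 and 22476 normalized CPM in WT replicates 1 to 3 and at 35195, 15690 and 22901 in KO replicates 1 to 3, low where rRNA was low. A single row, MTB, held this spread, from 1168 normalized CPM in WT replicate 1 to 22258 in KO replicate 1. Without MTB the other 48 rodent rows summed to 13110 ± 116 normalized CPM in WT and 12883 ± 124 in KO. The MLT share of all counts outside structural RNA, whose denominator includes such rows, was 1.43%, 0.732% and 1.06% in WT and 0.768%, 1.37% and 1.08% in KO. The part of these rows in that spread was not tested. The mean share was 1.07% ± 0.348 in WT and 1.07% ± 0.301 in KO.

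**Figure D1:**
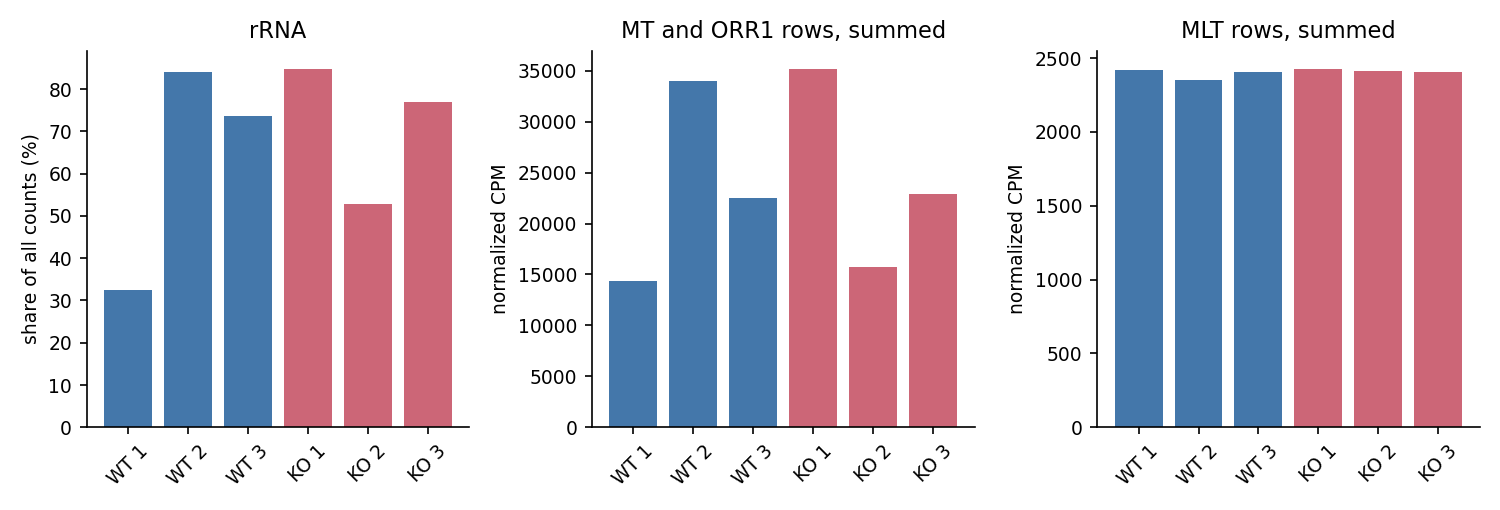
Bars give, for each of the 6 libraries (WT blue, KO red), the rRNA share of all counts in percent, the summed level of the 49 MT and ORR1 rows and the summed level of the 60 MLT rows, both in normalized CPM from 0. The MLT sum stays between 2349 and 2429, while the rodent sum is lowest in WT replicate 1 and KO replicate 2, which have the least rRNA.

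LTR rows carried nearly all the MLT signal. They summed to 2287 ± 33.6 normalized CPM in WT and 2307 ± 11.1 in KO, and internal rows to 106 ± 4.43 and 108 ± 1.19. Internal rows thus held 4.50%, 4.29% and 4.49% of the MLT counts in WT replicates 1 to 3 and 4.50%, 4.50% and 4.45% in KO replicates 1 to 3. The exact (Clopper-Pearson) 95% interval was 3.999% to 4.596% in WT replicate 2, the library with the fewest MLT counts, and contained the value of each other library. These intervals cover counting error only. Rows are sums over different numbers and lengths of copies, which the files do not give, so levels are compared here between libraries and not between subfamilies.

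The main comparison asked which MLT subfamilies change when β-actin is absent. MLT1G1 and MLT1M, both LTR subfamilies, were lower in KO, each at 0.83 of its WT level, and no MLT row was called higher. Of the 60 rows, 54 had enough counts to be tested, and the 6 that did not were all internal rows. The 2 rows called lower are 3.70% of the 54 tested, against 3.6% of all 1193 tested rows called lower, 2.18% called higher and 5.78% called in either direction. A row was called where its edgeR quasi-likelihood p, adjusted by Benjamini-Hochberg over all tested rows, was below 0.05. The share of MLT rows called thus lies near that of the whole table. Leaving out replicate 2 or replicate 3 of either genotype ended both calls, and MLT1M also lost its call without WT replicate 1. With single libraries left out, the log2 fold changes ran from -0.31 to -0.24 for MLT1G1 and from -0.32 to -0.23 for MLT1M. Neither was called with the replicate number as a block, or in 4 libraries without WT replicate 1 and KO replicate 2.

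MLT1G1 was at 87.9, 93.9 and 96.2 normalized CPM in WT replicates 1 to 3 and at 74.98, 79.7 and 74.7 in KO replicates 1 to 3. Every KO library lay below every WT library. The level fell from 92.7 ± 4.29 to 76.5 ± 2.80, and the log2 fold change was -0.27 ± 0.05 (SE; edgeR adjusted p = 0.0204). Its internal partner MLT1G1-int had only 6 to 48 counts per library, at 1.60 ± 0.480 against 1.49 ± 0.833. It did not pass the test (edgeR adjusted p = 0.887). The edgeR log2 fold change of MLT1G1-int was 0.15 ± 0.41 (SE), above 0 although its mean level was lower in KO.

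MLT1M was at 30.5, 32.5 and 32.3 normalized CPM in WT and at 28.1, 24.8 and 26.2 in KO, again without overlap. It fell from 31.8 ± 1.11 to 26.3 ± 1.64, and the log2 fold change was -0.28 ± 0.07 (SE; edgeR adjusted p = 0.0496). That value is close to the threshold, and the call was lost in 14 of 17 alternative settings, with adjusted p from 0.0371 to 0.998 over all of them. MLT1G1 kept its call in 10 of the 17, with adjusted p from 0.0188 to 0.998. In both rows the 0.998 came from total-count scaling, where no row of the whole table was called. In the other settings the highest edgeR adjusted p was 0.286 for MLT1M, in the 4 libraries. For MLT1G1 it was 0.131, without WT replicate 3. MLT1M has no internal row of its own name.

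As shares of the MLT counts of the same library, which re-express the same counts on another scale and add no independent evidence, the values were as follows. MLT1G1 took 3.63%, 3.997% and 3.99% of them in WT and 3.09%, 3.30% and 3.11% in KO. For MLT1M the shares were 1.26%, 1.38% and 1.34% in WT and 1.16%, 1.03% and 1.09% in KO. In both rows the WT and KO shares did not overlap.

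**Figure D2:**
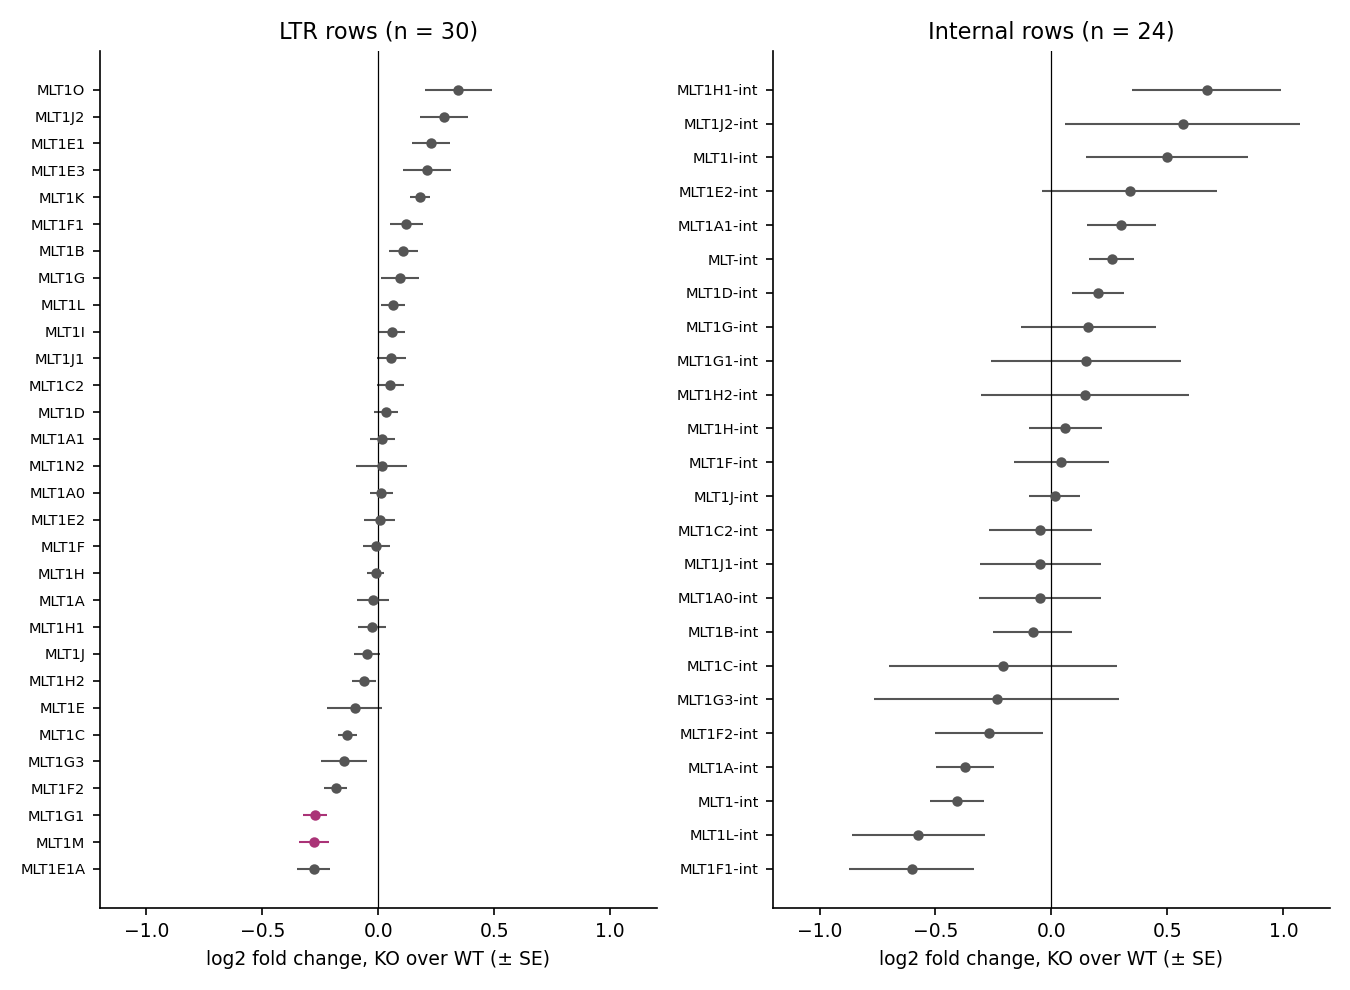
Points give the log2 fold change of KO over WT with its standard error for the 30 LTR rows and the 24 tested internal rows, ordered by value. MLT1G1 and MLT1M, the 2 rows called lower, are in purple at -0.27 and -0.28. Internal rows spread more widely, with longer error bars.

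Over all 54 tested rows the fold changes centred on 0. The median log2 fold change was 0.01, as it was over all 1193 rows (0.01), with 30 rows above 0 and 24 below. The median was -0.01 over the 49 rodent MaLR rows, of which 3 (6.12%) were called lower and none higher. It was 0.03 over the 104 tested ERVL rows, of which 1 (0.962%) was called higher and none lower. Over all tested rows, 3.6% were called lower and 2.18% higher. The MLT2 rows, LTRs of the ERVL family despite their name, had 0 calls among 10 and a median of 0.02. The L2, CR1 and MIR rows, old elements outside the LTR class, had 1 called lower among 29 tested (3.45%) and a median of 0.000515. No MLT row reached a 2-fold change, and the range ran from -0.60 (MLT1F1-int) to 0.67 (MLT1H1-int), both internal rows with at most 51 counts in any library. With scaling by total counts the medians were -0.37 for the MLT rows and -0.36 for all rows.

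Standard errors were small in the abundant rows. In the 12 rows that averaged 1000 or more counts, they were 0.04 to 0.07 on the log2 scale, and the 95% intervals of all 12 together lay between -0.39 and 0.28. MLT1D, the row with the most counts, was at 219, 216 and 219 normalized CPM in WT and 228, 223 and 219 in KO. All 3 KO libraries lay above the WT libraries, but by little: its log2 fold change was 0.03, with a 95% interval of -0.08 to 0.15 (edgeR adjusted p = 0.757). MLT1A1 was at 214 ± 5.23 and 217 ± 6.04, MLT1C2 at 207 ± 9.57 and 215 ± 7.79, and MLT1A0 at 161 ± 3.20 and 162 ± 4.14.

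MLT1B was at 206, 199.9 and 191 normalized CPM in WT and 227, 211 and 207 in KO, which do not overlap. Its log2 fold change was 0.11, with a 95% interval of -0.03 to 0.25, and it did not pass (edgeR adjusted p = 0.364). MLT1A was at 137 ± 10.8 in WT and 135 ± 5.27 in KO, with a log2 fold change of -0.02. MLT1H had the smallest standard error of the 12, 0.04, with 85.8 ± 0.999 in WT and 85.2 ± 1.12 in KO. The interval for MLT1H, -0.10 to 0.08, leaves room only for small changes, whereas that of the rare MLT1G1-int was -0.79 to 1.09.

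**Figure D3:**
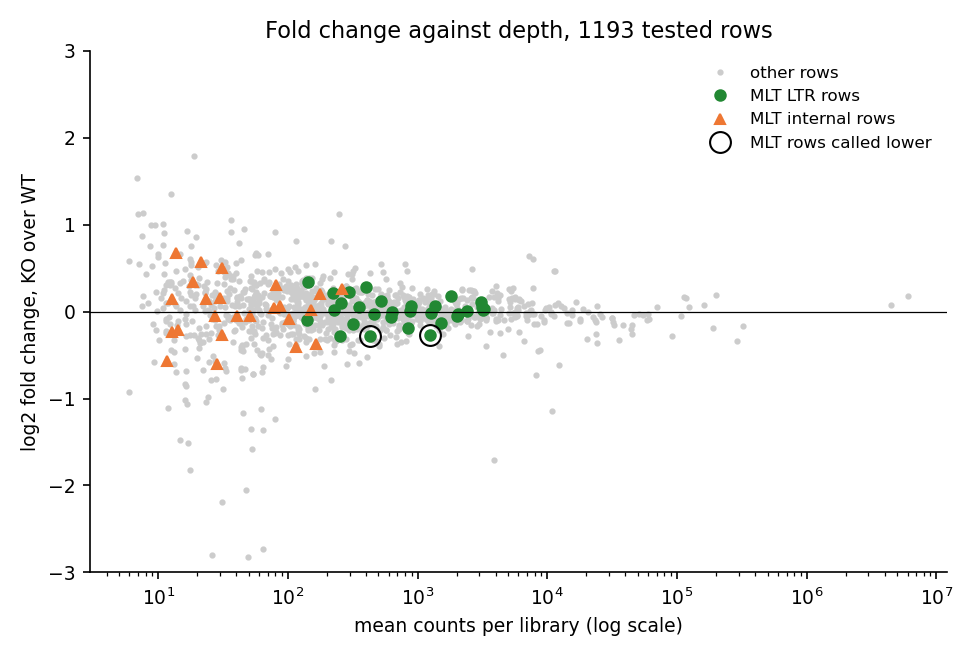
Each point is one of the 1193 tested rows, by mean counts per library (log axis) and log2 fold change. The MLT LTR rows (green) have 141 to 3278 counts and narrow towards 0 with depth, the tested MLT internal rows (orange) have 11.7 to 263 counts, and the 2 rows called lower are circled.

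An unadjusted p below 0.05 was about as frequent among MLT rows as in the whole table: 12 rows, 22.2% of those tested, against 20.9% of all tested rows. Of the 12, 7 had lower and 5 higher values in KO. WT and KO libraries did not overlap in 19 MLT rows, 11 with KO above and 8 with KO below. KO lay above in 20.4% of tested MLT rows, against 12.4% of all tested rows, and below in 14.8%, against 13.4%. Together they are 35.2% of the tested MLT rows, against 25.8% of all tested rows, and the differences between these shares were not tested. The rows named next, MLT1K, MLT1F2 and MLT1C among them, were in part chosen after their values were seen, and none but MLT1G1 and MLT1M passed the adjusted threshold.

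On the lower side, MLT1E1A was at 18.4, 17.6 and 19.0 normalized CPM in WT and at 15.6, 15.1 and 14.9 in KO (log2 fold change -0.28, edgeR adjusted p = 0.0649). MLT1F2 had 59.7 ± 2.38 in WT against 52.7 ± 2.07 in KO (edgeR adjusted p = 0.0797), and MLT1C had 106 ± 2.34 against 96.2 ± 1.68 (edgeR adjusted p = 0.0990). In these 3 LTR rows the libraries of the genotypes were separate.

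The internal rows MLT1-int and MLT1A-int had larger differences and wider errors. MLT1-int was at 8.88, 8.58 and 8.70 normalized CPM in WT and at 7.11, 6.56 and 6.27 in KO, with a log2 fold change of -0.41 ± 0.12 (SE; edgeR adjusted p = 0.0871). MLT1A-int was at 11.9, 10.9 and 14.5 in WT and at 10.4, 9.73 and 9.11 in KO, at -0.37 on the log2 scale (edgeR adjusted p = 0.135). WT replicate 3 was the highest library of MLT1A-int, and the KO values lay below all WT values. The LTR row of the same name, MLT1A, had a value near 0, as given above.

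On the higher side, MLT1K was at 114, 113 and 112 normalized CPM in WT and at 127, 131 and 126 in KO. Its replicates were among the most even, at 113 ± 1.33 and 128 ± 2.68, and its log2 fold change was 0.18 ± 0.04 (SE; edgeR adjusted p = 0.0504). It passed in 1 of 17 alternative settings, when rows averaging under 50 counts were left out (edgeR adjusted p = 0.0344). On the scale of total counts its fold change lay below 0, at -0.18.

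MLT1O had the highest log2 fold change of the LTR rows, 0.34 ± 0.14 (SE), and did not pass (edgeR adjusted p = 0.218). It was at 9.58, 7.15 and 8.004 normalized CPM in WT and at 12.5, 10.5 and 9.85 in KO, so that the lowest KO library lay just above the highest WT library. MLT1J2 had 23.7 ± 2.98 in WT against 29.3 ± 2.62 in KO (edgeR adjusted p = 0.158), and MLT1E1 had 18.6 ± 1.154 against 21.96 ± 1.60 (edgeR adjusted p = 0.159). MLT-int, the internal row whose name lacks the digit of the MLT1 rows, was at 17.8, 14.05 and 15.4 in WT and at 20.3, 18.6 and 19.0 in KO (edgeR adjusted p = 0.169). MLT1A1-int was at 5.02 ± 0.503 and 6.11 ± 0.260 (edgeR adjusted p = 0.300). Scaled by total counts, where the median of all rows was -0.36, each of these rows had a fold change below 0, with MLT1A1-int nearest to it at -0.02.

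**Figure D4:**
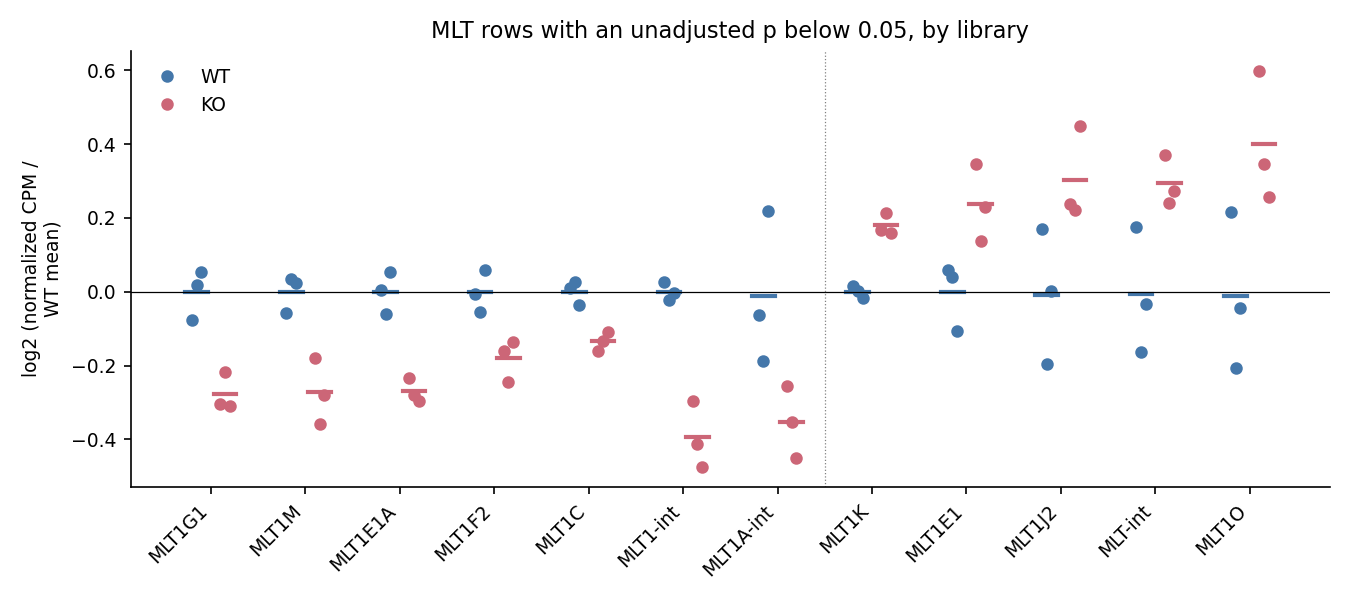
Points are single libraries (WT blue, KO red) of the 12 MLT rows with an unadjusted p below 0.05, as log2 of normalized CPM over the WT mean, with bars at group means. The 7 rows left of the dotted line are lower in KO and the 5 on the right higher; MLT1G1 and MLT1M alone passed the adjusted threshold.

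Fold changes also varied among subfamilies that share a letter, and the MLT1G, MLT1E and MLT1F rows are given as examples chosen after their values were seen. In the MLT1H rows all 3 values lay slightly below 0, from -0.06 to -0.01, and none passed. Among the 3 MLT1G LTR rows, MLT1G had a log2 fold change of 0.09, MLT1G1 of -0.27 and MLT1G3 of -0.15. Counts of MLT1G1 over MLT1G were 5.08, 5.60 and 6.25 in WT and 4.50, 4.599 and 4 in KO. The ratio was lower in each KO library than in each WT library.

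Among the 5 MLT1E rows, MLT1E1 and MLT1E1A, whose names differ in the final letter, lay on opposite sides of 0 at 0.23 and -0.28. The ratio of MLT1E1 to MLT1E1A counts was 1.05, 1.09 and 0.908 in WT and 1.52, 1.36 and 1.46 in KO. Among the 3 MLT1F rows, MLT1F1 over MLT1F2 was 0.597, 0.527 and 0.558 in WT and 0.734, 0.710 and 0.660 in KO. These pairs are described without a test. The sources used here do not say how reads that match several subfamilies were divided between rows, and the part of that division in these ratios was not tested.

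Among letters with several LTR rows, most sums differed by little. Letters with a single LTR row are not sums. Among these, MLT1O, MLT1M, MLT1K and MLT1B, given above, differed more, while MLT1D and MLT1N2 differed little. The 3 MLT1A LTR rows summed to 512 ± 14.2 normalized CPM in WT and 514 ± 3.08 in KO, and the 3 MLT1H rows to 160 ± 4.13 and 157 ± 1.86. The 3 MLT1J rows summed to 182 ± 10.6 and 184 ± 5.34, and the 5 MLT1E rows to 119 ± 2.74 and 121 ± 3.47. The MLT1E rows had fold changes on both sides of 0, and none of them passed. The MLT1C rows summed to 313 ± 7.24 in WT and 311 ± 6.13 in KO, and the MLT1F rows to 136 ± 5.97 and 132 ± 2.66. The MLT1G rows, at 131 ± 1.95 and 114 ± 5.02, followed MLT1G1, their most abundant row.

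LTR and internal rows of the same name could be set side by side for 28 names, with both rows tested in 22. Their edgeR fold changes had the same sign in 10 and opposite signs in 12. In MLT1G1-int, MLT1C2-int and MLT1G3-int the fold change and the difference in mean level had opposite signs, so this split depends on the measure. MLT1F1 was at 0.12 and MLT1F1-int, with 18 to 51 counts per library, at -0.60 ± 0.27 (SE; edgeR adjusted p = 0.253). MLT1L was at 0.06 and MLT1L-int, with 5 to 21 counts, at -0.57 ± 0.29 (SE; edgeR adjusted p = 0.354). MLT1J2 and MLT1J2-int were both above 0, at 0.28 and 0.57, but the internal row had 2 to 39 counts per library and a standard error of 0.51. The median standard error was 0.06 for LTR rows and 0.26 for internal rows, so that most internal rows could not show a difference of the size seen in their LTRs at this depth.

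**Figure D5:**
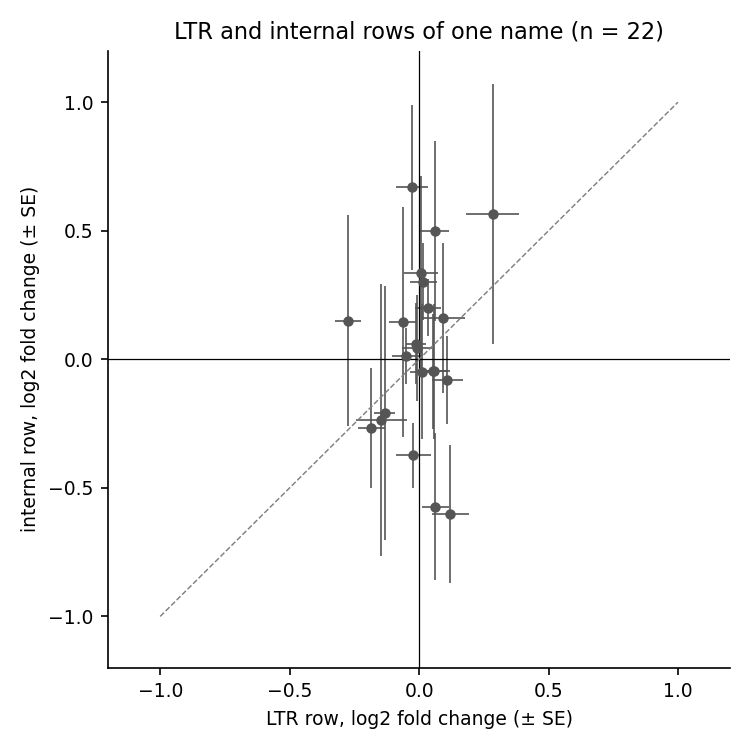
Each point is 1 of the 22 names with both rows tested, by the log2 fold change of its LTR row (x axis) and of its internal row (y axis), with standard errors; the dashed line marks equal values. The points scatter along the y axis around 0, with 10 in the same-sign quadrants and 12 in the others.

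The 6 untested rows were MLT1E-int, MLT1E1-int, MLT1E1A-int, MLT1E3-int, MLT1K-int and MLT1N2-int, with at most 10 counts in any library. MLT1E1A-int had 3, 2 and 0 counts in WT and 1, 2 and 10 in KO, and MLT1E3-int 0 in each WT library and 0 to 2 in KO. No fold change is given for them.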

How the data were processed

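The submitters' processing notes name Bowtie2, Trimmomatic and FastQC 0.11.5, and the builds GRCm38 and mm10. The repeat annotation, the counting program and whether it used strand are not stated in the sources used here. For each library the authors deposited estimated counts per repeat row, called fraction counts in the file names and not normalized. All values were whole numbers. Members, lists and named rows were chosen with earlier results of these data known.

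Counts were tested in R 4.3.3 with edgeR 4.0.16 (filterByExpr, TMM, quasi-likelihood test), and p-values were adjusted by Benjamini-Hochberg, with a threshold of 0.05, over all 1193 tested rows. Another 143 rows were not tested. Standard errors and intervals come from the test statistic. The median tested row had 107 to 350 counts per library. The procedure was tested on simulated data. Named by rule were the called rows, the 6 most abundant, and the 5 highest and 5 lowest fold changes at 50 or more mean counts. With LTR or internal partners of the called rows and of these highest and lowest rows, they were 20 rows. MLT1K, MLT1F2 and MLT1C were added after their values were seen, and some other rows are also given outside these rules. A planned search for rows following the summed MLT level is not reported, since that level spanned only 2349 to 2429 normalized CPM. Alternatives used DESeq2 1.42.0, limma-voom (limma 3.58.1), other scalings and filters, an rRNA covariate, a replicate block and left-out libraries.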

Additional observations from a re-analysis of the deposited data

How the results depend on the processing

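Over all rows, 69 calls became 0 with total-count scaling in edgeR (3 rows at an unadjusted p under 0.05), 41 without structural RNA, 24 with the replicate block, 9 without WT replicate 1 and KO replicate 2 together, and 22 to 69 when single libraries were left out. The 2 MLT calls became 1 (MLT1G1) with DESeq2 size factors, without structural RNA, with DESeq2, with limma-voom and with TMM over ERVL-MaLR rows, an alternative chosen after seeing the data. They became 0 with total-count scaling (0 MLT rows at an unadjusted p under 0.05), with the replicate block and in the 4 libraries, and 0 to 2 when single libraries were left out. The cause was not tested. Deviations from the group means were not shared by libraries of equal number (r over rows of -0.55, -0.50 and 0.04 for replicates 1 to 3). They were shared by some libraries of unequal number. The r was 0.62 for WT replicate 1 with KO replicate 2 and 0.46 for WT replicate 2 with KO replicate 1. For the remaining pairs it was between -0.18 and 0.13. The labels tie no number to a litter or batch. With the block, the fold changes of MLT1G1 and MLT1M were -0.28 and -0.27.

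The MLT median moved from 0.01 to -0.37 with total-count scaling, where the median of all rows was -0.36, to 0.044 with the rRNA covariate, to 0.049 in the 4 libraries, and to between -0.0081 and 0.042 when single libraries were left out. With ERVL-MaLR rows alone it was 0.02, and no calls were counted there. Total-count scaling reversed MLT1D (-0.34), MLT1A1 (-0.36), MLT1C2 (-0.31), MLT1B (-0.30), MLT1A0 (-0.35), MLT1O (-0.14), MLT1A1-int (-0.019), MLT1J2 (-0.19), MLT-int (-0.21), MLT1E1 (-0.20) and MLT1K (-0.18). Values near 0 also changed sign when single libraries were left out: MLT1A1 between -0.0078 and 0.043, MLT1A0 between -0.0051 and 0.028, and MLT1A between -0.088 and 0.028. So did the rare MLT1G1-int, at 0.15 ± 0.41 (SE) in the main fit and between -0.42 and 0.36 with single libraries left out. MLT1A was 0.042 and MLT1G1-int -0.68 in the 4 libraries, and MLT1G1-int was -0.15 with the block. Depth limits the internal rows most, with a median of 31.0 counts per library against 739 for LTR rows.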
